A study of Homo sapiens with 2 samples.

Results

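The mTORC1 pathway genes described here are 10 human genes that encode the mTOR kinase, its complex partners, the switch that turns the complex on, its inhibitors and its main substrates: MTOR, RPTOR, RICTOR, TSC1, TSC2, RHEB, AKT1S1, DEPTOR, RPS6KB1 and EIF4EBP1. They were picked by name, and all 10 were found by symbol among the 46427 genes listed. RNA was sequenced from NK92, an established human natural killer cell lymphoma line that grows in IL-2. The exposed group received PPMX-T003 at 10 µg/mL for 6 h and the unexposed group none, both from the same culture, which had grown for 18 h before it was split. PPMX-T003 is an antibody against transferrin receptor 1 (TfR1), through which cells take up iron. The unexposed group and the PPMX-T003 group each hold 1 library, with 46766416 and 43178462 counted reads, so no difference given here has a replicate check. By the study's methods both dishes stayed in culture for 6 h after the split. The deposited table nevertheless names the libraries 0 h and 6 h; the 0 h library was read as the unexposed dish, and if that name means a harvest at the split, exposure and time in culture cannot be told apart.

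mTORC1 is a kinase complex at the surface of the lysosome that couples the supply of amino acids, growth factors and energy to protein synthesis and cell growth. Amino acids bring the complex to the lysosome through the Rag GTPases, and there the small GTPase RHEB, which the TSC complex holds inactive, switches the kinase on. In natural killer cells, cytokines such as IL-2 and amino acid uptake through LAT1 feed this pathway, and its output includes the synthesis of Myc, a transcription factor with TFRC, the gene of TfR1, among its targets. Much of the control acts on proteins through phosphorylation and binding, which RNA counts do not measure.

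Markers of the cell type were examined first. All 8 natural killer cell markers had more than 3 reads in both libraries, with summed levels of 3854 and 4280 CPM (the reads of a gene for every 1000000 counted, after scaling) in the unexposed and exposed library, and IL2RB, a chain of the IL-2 receptor, took the most reads of them at 1202 and 1298 CPM. Of 5 T cell markers, only TRAC was above 3 reads in both, at 32.1 and 30.4 CPM, and CD3D, CD3G and CD8B had no reads. The 4 erythroid markers had no reads, and the B cell and monocyte markers with the most reads were CD79A, at 0.299 and 0.278 CPM, and CSF1R, at 0.470 and 0.209 CPM. The markers fit the name of the line in part, since all its markers were present while CD3D, CD3G, CD8B and the erythroid genes were at 0. TRAC went the other way, with more CPM than the natural killer cell marker KLRD1, at 30.6 and 29.6. In a bulk library, fewer cells of a type and less RNA per cell cannot be told apart.

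The 10 genes together took 26923 of the counted reads in the unexposed library, or 0.0576%, and 24121 in the exposed library, or 0.0559%. Levels of different genes were compared as TPM, the transcripts of a gene for every 1000000 transcripts, which allow for transcript length and were deposited as whole numbers. In the unexposed library the order was RHEB at 70 TPM, MTOR at 51, RPS6KB1 at 31, EIF4EBP1 at 29, TSC2 at 27, RPTOR at 19, RICTOR and AKT1S1 at 15 each, TSC1 at 5 and DEPTOR, listed at 0. The same order held in the exposed library apart from EIF4EBP1, which at 22 TPM came below TSC2 at 27, and RICTOR, which at 13 TPM came below AKT1S1 at 15. TSC1, TSC2 and AKT1S1 had the same whole-number TPM in both libraries. The members therefore differed far more from each other than between the libraries.

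**Figure D1:**
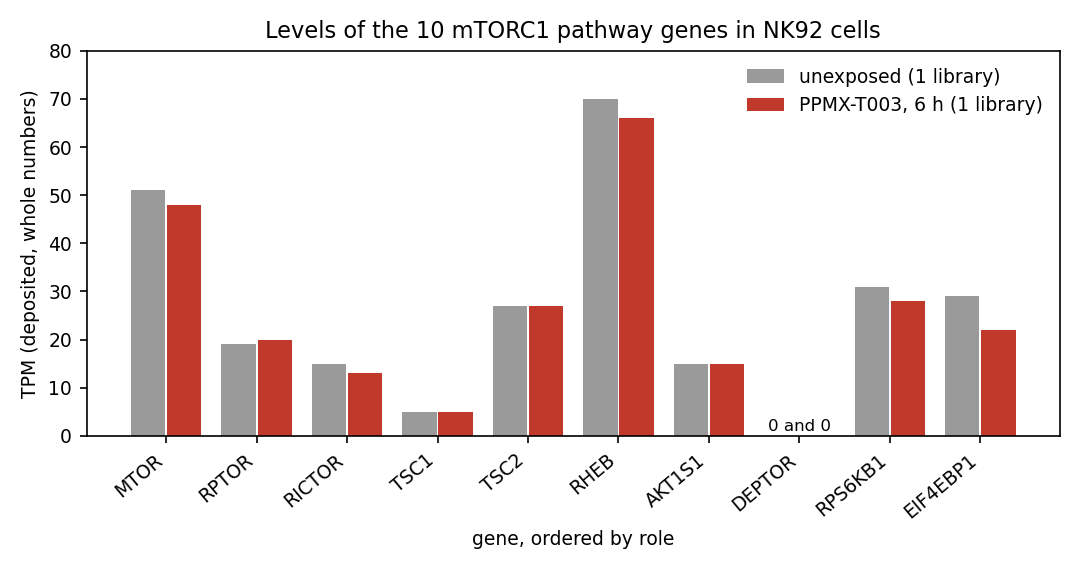
Deposited TPM (vertical axis, whole numbers) of the 10 genes, ordered by role along the horizontal axis, with a grey bar for the unexposed library and a red bar for the exposed one. RHEB and MTOR stand highest at 70 and 51 TPM in the unexposed library, and the widest gap between the libraries is that of EIF4EBP1, from 29 to 22 TPM.

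Between the libraries, the ratio of each gene was taken on CPM after scaling by trimmed mean of M values (TMM), as log2 of exposed over unexposed, so that 0 is no difference, 1 is a doubling and negative values are lower in the exposed library. Each ratio has a 95% interval that covers counting error only and compares the libraries, not the conditions. A gene was called higher or lower where its interval lay off 0. Of the 10 members, all of which had the minimum of 20 reads over both libraries, 1 was higher (RPTOR), where 21.8% of the 13665 genes tested were higher, and 4 were lower (EIF4EBP1, RICTOR, RPS6KB1 and MTOR), where 23.9% of genes tested were lower. None reached 2-fold in either direction, as 2.64% of genes tested did. The intervals of the remaining 5 members held 0, and the median log2 ratio of the 10 was -0.039, beside -0.0020 for all genes tested. The members as a list thus lay near the middle of all genes, and nothing particular to them is read from these counts.

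**Figure D2:**
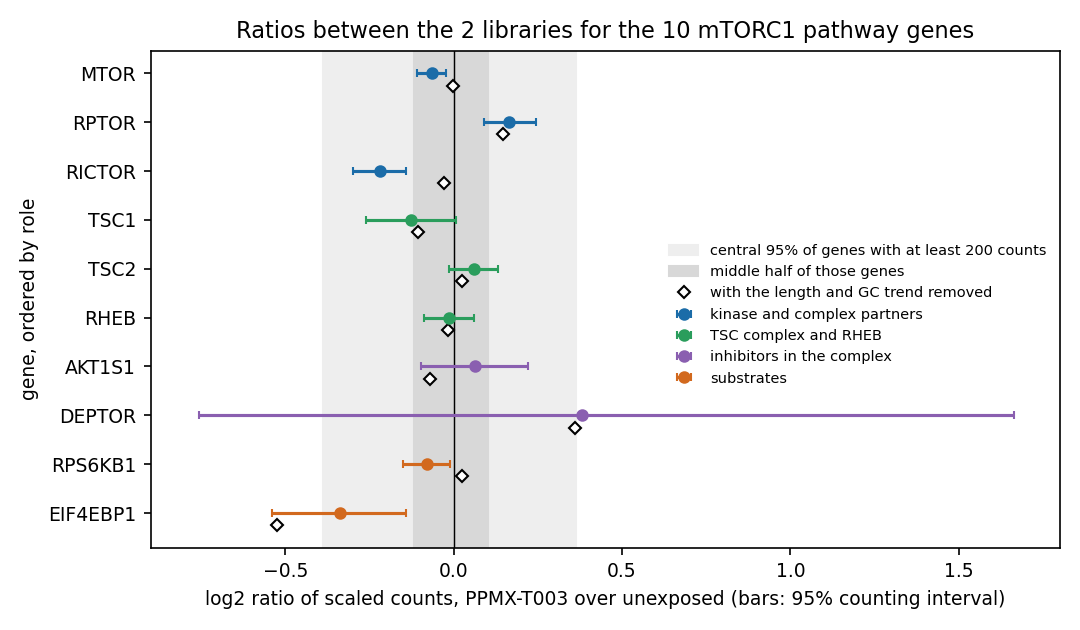
Log2 ratio of each of the 10 genes (horizontal axis; filled points coloured by role, bars for the 95% counting interval), with open diamonds for the ratio after removal of the trend with transcript length and GC content. The pale band spans the central 95% of genes with at least 200 reads, from -0.39 to 0.36, and the darker band their quartiles, -0.12 and 0.10; RPTOR and DEPTOR, the latter with only 12 and 15 reads, lie to the right of the quartiles, and RICTOR, TSC1 and EIF4EBP1 lie to their left.

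MTOR (Gene ID 2475, chr1:11106535-11262551 on GRCh38), the kinase itself and the catalytic subunit of both mTOR complexes, had 9290 reads in the unexposed library and 8189 in the exposed one. These are 199 and 190 CPM, the most reads of any member. The log2 ratio was -0.065, with an interval from -0.11 to -0.022, so the scaled level of MTOR fell by 4.39%. The interval of MTOR was the narrowest of the 10 genes, and its ratio lay inside the quartiles of all genes with at least 200 reads, -0.12 and 0.10.

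RPTOR (Gene ID 57521, chr17:80544838-80966368), the scaffold that recruits substrates and defines mTORC1, had 2679 and 2771 reads, or 57.2 and 64.2 CPM. Its log2 ratio of 0.17, interval 0.089 to 0.24, made it the only member called higher. Its whole-number TPM went from 19 to 20, which with a pseudocount of 1 is a log2 ratio of 0.070, below that interval. RICTOR (Gene ID 253260, chr5:38937920-39074399), the counterpart of RPTOR that defines mTORC2, had 3069 and 2429 reads, or 65.6 and 56.3 CPM. RICTOR was lower, with a log2 ratio of -0.22 and an interval from -0.30 to -0.14. The genes that define the complexes thus differed in opposite directions, although the calls of RICTOR and MTOR, unlike that of RPTOR, were lost once transcript length and base content were allowed for.

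The balance of the pair was therefore taken inside each library. RPTOR had 0.873 reads for each read of RICTOR in the unexposed library and 1.14 in the exposed one, a log2 change of 0.39 with an exact interval from 0.28 to 0.50. Scaling between libraries cancels from this change, whereas sequence composition does not, because the transcripts differ strongly in base content. RPTOR transcripts were 59.6% G and C and RICTOR transcripts 37.3%, and at the third base of codons the coding sequences held 77.5% and 33.9%. A stretch of 150 coding bases of each is shown to make that contrast visible; each is the middle of the longest coding exon with no annotated untranslated use, read from GENCODE release 29 on GRCh38, on the strand of the gene. For RPTOR this is in exon 16 of 34, chr17:80883802-80883951, plus strand, with 64% G and C, and for RICTOR in exon 8 of 39, chr5:38981877-38982026, minus strand, with 42.7%.
RPTOR: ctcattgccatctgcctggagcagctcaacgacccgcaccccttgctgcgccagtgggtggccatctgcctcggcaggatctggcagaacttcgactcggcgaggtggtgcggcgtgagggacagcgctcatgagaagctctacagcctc
RICTOR: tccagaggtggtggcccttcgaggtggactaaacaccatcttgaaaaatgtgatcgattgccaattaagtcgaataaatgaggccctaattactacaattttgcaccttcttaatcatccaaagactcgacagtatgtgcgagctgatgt

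Across all genes, the ratio between the libraries followed base content and length. Among genes with at least 200 reads and a known transcript, split into 10 bins of equal size, the bin poorest in GC (31.8% to 39.1%) had a median log2 ratio of -0.13 and the richest bin (61.3% to 74.1%) had 0.12. By length, the bin of shortest transcripts had 0.089 and that of the longest had -0.14. RICTOR is in the bin poorest in GC and, at 8524 bases, in the bin of longest transcripts. A smooth trend with length and GC content was fitted over 10126 genes and subtracted, after which the log2 ratio of RICTOR was -0.029 and that of MTOR was -0.0019, and neither interval lay off 0. RPTOR kept its call, at 0.15, and the change in balance from RICTOR to RPTOR was 0.17, less than its value of 0.39 before subtraction. The source of the trend was not tested.

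**Figure D3:**
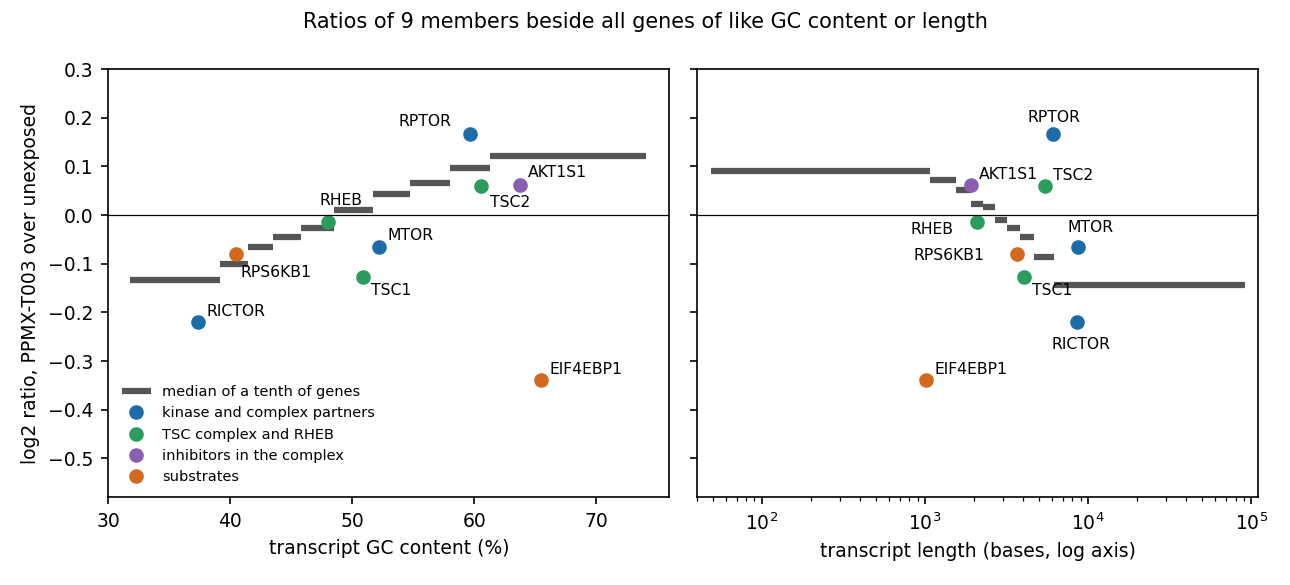
Log2 ratio (vertical axis) of the 9 members with at least 200 reads, coloured by role, against transcript GC content in percent (left) and transcript length in bases on a log axis (right); grey bars are the medians of all genes in each of 10 bins. RICTOR and RPS6KB1 lie toward the low-GC end, where the medians are negative, and EIF4EBP1, at -0.34, lies far from the positive medians of its bins, 0.12 for GC content and 0.089 for length.

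TSC1 and TSC2 encode the scaffold and the GTPase-activating subunit of the TSC complex, which turns RHEB off. TSC1 (Gene ID 7248) had 984 and 831 reads, or 21.0 and 19.3 CPM, with a log2 ratio of -0.13 and an interval from -0.26 to 0.0081. TSC2 (Gene ID 7249) had 3129 and 3006 reads, or 66.9 and 69.7 CPM, with a log2 ratio of 0.059 and an interval from -0.013 to 0.13. Neither subunit was called, and TSC1 became lower under 1 other scaling, the median of ratios. With the trend subtracted TSC1 was at -0.11 and TSC2 at 0.024, again not called. When the trend was taken from the longest transcripts, TSC1 was at -0.044. RHEB (Gene ID 6009), the GTPase that activates mTORC1, had 3025 and 2762 reads, which scaling brought to 64.6 and 64.0 CPM. Its log2 ratio was -0.014, interval -0.089 to 0.061, the nearest to 0 of the 10 genes. No bound of the TSC2 and RHEB intervals was thus farther from 0 than 0.13, whereas that of TSC1 reached -0.26. TSC2 shares exon sequence with NTHL1 (1402 and 1380 reads) and PKD1 (2780 and 2682 reads) on the opposite strand, and reads there cannot be assigned with certainty, because the strand setting of the counting is not known.

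AKT1S1 (Gene ID 84335), which encodes PRAS40, an inhibitor of mTORC1 that AKT phosphorylates, had 668 and 643 reads, or 14.3 and 14.9 CPM. The log2 ratio was 0.062, with an interval from -0.096 to 0.22 that holds 0, and with the trend subtracted it was -0.069, again not called. DEPTOR (Gene ID 64798), which encodes an inhibitor found in both complexes, had 12 and 15 reads, or 0.256 and 0.348 CPM. It was above 3 reads in both libraries but was scarcely transcribed in NK92 cells, and its log2 ratio of 0.38 had an interval from -0.76 to 1.67, too wide to give a direction. Of the inhibitors inside the complex, AKT1S1 was thus the one present at an appreciable level, 15 TPM against 0.

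The substrates carried the lowest ratio of the 10. EIF4EBP1 (Gene ID 1978) encodes 4E-BP1, which binds the cap-binding protein eIF4E and holds back translation until mTORC1 phosphorylates it. It had 497 and 362 reads, or 10.6 and 8.39 CPM, and its TPM went from 29 to 22. The log2 ratio was -0.34, with an interval from -0.54 to -0.14, so its scaled level fell by 20.9%. This lies inside the central 95% of well-counted genes, from -0.39 to 0.36, as the ratios of all 9 members with at least 200 reads did. EIF4EBP1 transcripts are short, 1020 bases, and 65.5% G and C, and genes in those bins had positive medians, so that subtracting the trend moved the ratio farther from 0, to -0.53. EIF4EBP1 was the only member still called lower after subtraction.

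RPS6KB1 (Gene ID 6198, chr17:59893121-59950574), which encodes the kinase S6K1, had 3570 and 3113 reads, or 76.3 and 72.1 CPM. The log2 ratio was -0.080, with an interval from -0.15 to -0.011, so it was called lower by a narrow margin, and its interval held 0 under upper quartile scaling. At 40.5% G and C its transcripts belong to a bin with a median of -0.10, and with the trend subtracted the sign turned, to 0.024. Its interval then held 0, so RPS6KB1 had no call in either direction once that trend was removed.

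Both substrates have a close paralog, and the members were set beside these. EIF4EBP2, the paralog of EIF4EBP1, had 9825 and 8598 reads and stood at 63 and 58 TPM, above EIF4EBP1 in both libraries. EIF4EBP1 had 0.0506 reads per EIF4EBP2 read in the unexposed library and 0.0421 in the exposed one, a log2 change of -0.26 with an interval from -0.47 to -0.062. The balance thus moved away from EIF4EBP1, and with the trend subtracted the change was -0.57. RPS6KB2, the paralog of RPS6KB1, had 2992 and 2991 reads and stood at 83 and 84 TPM, above RPS6KB1 at 31 and 28. RPS6KB1 had 1.19 reads per RPS6KB2 read and then 1.04, a log2 change of -0.20 with an interval from -0.30 to -0.095. Subtracting the trend turned this change to 0.034, so the shift between the S6 kinase genes, unlike that between the 4E-BP genes, did not keep its sign.

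With the trend subtracted from every member, 1 of the 10 was higher (RPTOR) and 1 was lower (EIF4EBP1), with a median of -0.0087. In that form 18.9% of the 12478 genes tested were higher and 19.0% were lower. RPTOR and EIF4EBP1 kept their calls under every other scaling tried as well. The prior count and the read filter do not enter the intervals, so neither could change a call.

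Further genes of the pathway, 95 in 7 lists by function, were counted in the same way to show what surrounds the members. Of these, 83 had enough reads, 20 were higher and 24 lower, or 24.1% and 28.9% beside 21.8% and 23.9% of all genes tested, with a median of 0.0030, and as with the members none reached 2-fold. The counts of each list below stand beside the same shares of all genes tested, 21.8% higher and 23.9% lower. With the trend subtracted these shares were 18.9% and 19.0%. Nothing particular to a list is read from its counts. MLST8, the subunit common to both mTOR complexes, was higher like RPTOR, at 59.7 and 72.9 CPM with a log2 ratio of 0.29 (0.22 to 0.36), as was TELO2, which helps to assemble mTOR, at 0.23 (0.15 to 0.31); of the 5 tested complex and assembly genes 2 were higher and 0 lower. With the trend subtracted both stayed higher, MLST8 at 0.15 and TELO2 at 0.12. Around TSC1, TSC2 and RHEB, 0 of 8 genes were higher and 3 were lower, among them GSK3B, a kinase that phosphorylates TSC2, at -0.28 (-0.35 to -0.22), and RPS6KA3 at -0.077 (-0.11 to -0.041). With the trend subtracted 1 was higher and 2 lower, the higher one being RPS6KA3, which turned to 0.090. GSK3B stayed lower, at -0.19, or at -0.16 when the trend was taken from the longest transcripts. MLST8 was thus higher together with RPTOR, while MTOR, which binds both, was lower before the trend was subtracted.

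**Figure D4:**
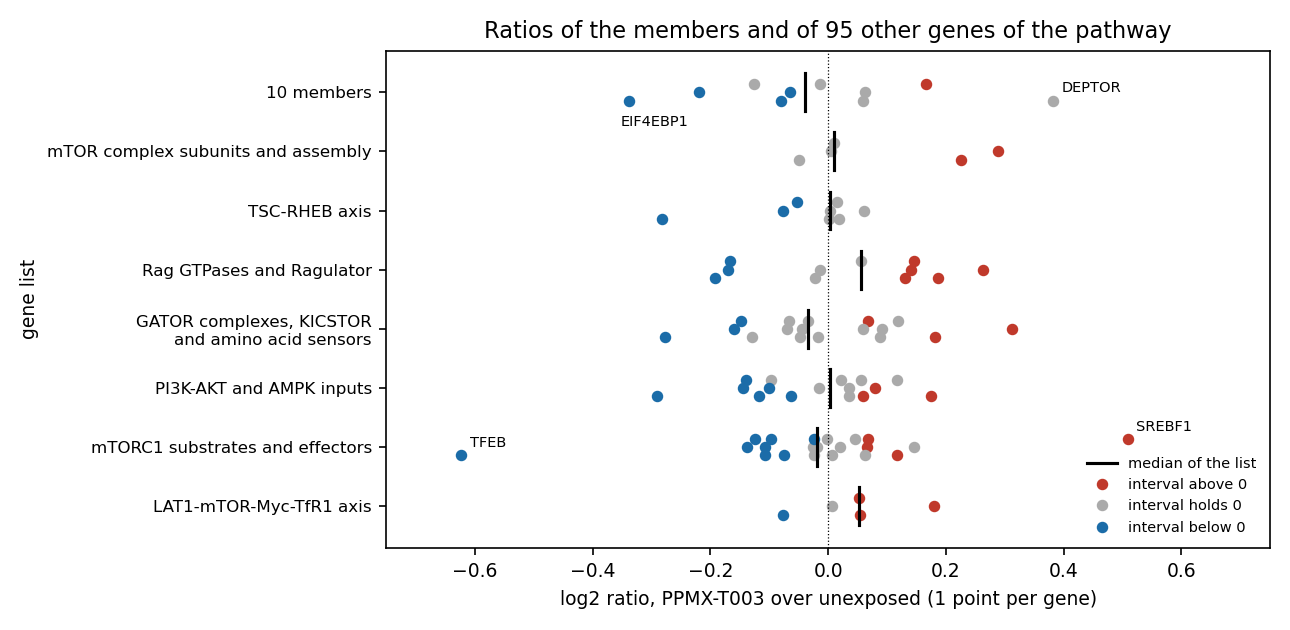
Log2 ratio (horizontal axis) of every tested gene in the member list and in 7 lists of other pathway genes (vertical axis), 1 point per gene, red where the interval lies above 0, blue where it lies below and grey where it holds 0; black ticks are list medians. The list medians run from -0.039 for the 10 members to 0.055 for Rag GTPases and Ragulator, and TFEB at -0.62 and SREBF1 at 0.51 lie farthest from 0.

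Of the Rag GTPases and the Ragulator complex, which dock mTORC1 on the lysosome, 11 of 13 genes were tested, 5 were higher and 3 lower. The 5 higher genes were LAMTOR1 to LAMTOR5, the Ragulator subunits, with log2 ratios from 0.13 to 0.26; they were singled out after their values were seen, and with the trend subtracted 2 of the 5 were higher and their median was 0.042 in place of 0.15. Lower genes included FNIP1 at -0.19 (-0.29 to -0.096) and RRAGC at -0.17 (-0.28 to -0.057), and with the trend subtracted 2 of the 11 were higher and 1 lower. Among the GATOR complexes, KICSTOR and amino acid sensors, 3 of 17 were higher and 3 lower, with NPRL3 at 0.18, KPTN at 0.31, LARS1 at -0.15 and SESN1 at -0.28; with the trend subtracted 1 was higher and 4 lower, with NPRL3 at 0.091 and LARS1 at -0.047. Among the PI3K, AKT and AMPK genes, which signal to TSC2 and AKT1S1, 3 of 16 were higher and 6 lower, with STK11 at 0.17, AKT2 at 0.080, PIK3CG at -0.29 and PRKAA1 at -0.14, but with the trend subtracted 5 were higher and 3 lower, with STK11 at 0.069 and PRKAA1, no longer called, at -0.040. No list had all of its tested genes called in the same direction.

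Beside the member substrates EIF4EBP1 and RPS6KB1, 4 of 21 other substrates and effectors were higher and 8 lower, and with the trend subtracted 5 were higher and 5 lower, with a median of 0.020 in place of -0.018. TFEB, a transcription factor for lysosomal genes that mTORC1 keeps out of the nucleus, was low in reads, 103 and 61, with a log2 ratio of -0.62 (-1.12 to -0.17), and SREBF1, a lipid synthesis regulator, had 196 and 258 reads and a ratio of 0.51 (0.24 to 0.79). EIF4E, the binding partner of 4E-BP1, was at -0.14 (-0.19 to -0.089) and EEF2, the elongation factor, at 0.066 (0.055 to 0.077). EIF4E and EIF4EBP1 were thus both called lower, although the ratio of EIF4E, unlike that of EIF4EBP1, turned to 0.044 when the trend was taken from the longest transcripts.

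Of the genes linking LAT1, mTOR, Myc and TfR1, 3 of 5 were higher and 1 lower, and with the trend subtracted 2 were higher and 2 lower. SLC7A5, which encodes LAT1, was lower at 187 and 177 CPM, with a log2 ratio of -0.077 (-0.12 to -0.032). This was close to that of MTOR only before the trend was subtracted. SLC3A2, its partner chain, was at 0.053 (0.0089 to 0.098), and this call was lost under median of ratios scaling. MYC was higher at 306 and 346 CPM, with a ratio of 0.18 (0.15 to 0.21), close to that of RPTOR. TFRC, the gene of the antibody's target, was at 407 and 422 CPM, with a ratio of 0.052 (0.023 to 0.082), and SLC1A5, a glutamine transporter, was at 0.0062 (-0.028 to 0.040). With the trend subtracted, 18 of the 83 further genes tested were higher and 17 lower, where 18.9% and 19.0% of all genes tested were. Among the further genes named by the rule given below, FNIP1, LAMTOR4, PRKAA1, EEF2, SLC3A2 and RPS6KB2 lost their calls in that form. KPTN lost its call as well, though its ratio, at 0.19, stayed inside its interval before subtraction. Calls of genes that the rule did not name were lost too, such as those of LAMTOR2, at -0.021, and SEC13, at -0.012. Among the members those of MTOR, RICTOR and RPS6KB1 were lost, and the paralog EIF4EBP2, at 0.047, turned to higher, though only when the trend was not taken from the longest transcripts. SLC7A5 remained lower, at -0.13, SLC1A5 became lower, at -0.083, and MYC and TFRC remained higher, at 0.14 and 0.17, although the deposited whole-number TPM of TFRC was 184 in both libraries. Like the 10 members, the 5 genes from LAT1 to TfR1 differed between the libraries by less than 2-fold.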

How the data were processed

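RNA of NK92 cells from 1 unexposed dish and 1 dish exposed to PPMX-T003 was analysed, with 1 library per group. According to the submitters' processing notes and the study's methods, the authors trimmed reads of stranded mRNA libraries with Trimmomatic 0.38, mapped them with HISAT2 2.2.0, quantified them with StringTie 2.1.3b on hg38 and named edgeR 3.17 for their comparison. The deposited reads per gene were whole, unscaled numbers written with commas, which were removed. The TPM values were deposited in whole numbers, a rounding made by the authors, and were therefore handled as a score. The 2 FPKM columns were not used. The strand setting of the counting is not given in the sources used here, and 7 of the 10 members share exon sequence with a gene on the opposite strand, 2 with one on the same strand.

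Genes with at least 20 reads over both libraries were tested. TMM scaling (trimming 30% by log ratio and 5% by mean level), log2 CPM with a prior count of 2 and 95% Clopper-Pearson intervals were checked on simulated data. The tools were Python 3.11.15, statsmodels 0.14.6 for the regression, scipy 1.17.1 for the intervals, and pandas 2.3.3 with numpy 2.4.6 for the rest. Intervals for a change in balance came from the exact conditional odds ratio. Intervals and the floor of 3 reads cover counting error only. PCR copies were not told apart, and the intervals take each read as independent. No test across samples was possible. Transcript length and GC content came from GENCODE release 29 (median over a gene's transcripts, known for 91.3% of tested genes), and gene positions from RefSeq on GRCh38. A Huber regression on log2 length, GC content and its square gave the trend, and intervals were shifted by it. Other genes were named by a rule: in each list the 2 higher and 2 lower genes whose interval lay farthest from 0, ranked by its nearer bound, every gene linking LAT1 to TfR1, and the partners MLST8, RPS6KB2 and EIF4EBP2. KICS2 was matched by Gene ID under an older symbol. The members and lists were chosen with earlier results of these data known.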

Additional observations from a re-analysis of the deposited data

How the results depend on the processing

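No paired analysis was possible because there is 1 library on each side, and no library could be left out. The calls of 8 of the 10 members held under 3 other scalings (median of ratios, library size, upper quartile), the exceptions being TSC1 and RPS6KB1, and no named gene moved by more than 0.012. Prior counts and filters do not enter the intervals, so they could not change a call and are no check of it. A minimum of 200 reads left DEPTOR out. The deposited TPM with a pseudocount of 1 has no interval; it put 14 of the 37 genes named by the rule, members included, outside their interval on reads, among them RPTOR at 0.070, SESN1 at -0.68, and TFRC and SLC3A2, both called higher on reads, at 0. Removing the length and GC trend left 1 member lower in place of 4, with MTOR at -0.0019, RICTOR at -0.029 and RPS6KB1 at 0.024. Among genes with a call it also turned the sign of RPS6KA3 (0.090), EEF2 (-0.0014), SLC3A2 (-0.032), RPS6KB2 (-0.011), EIF4EBP2 (0.047) and the RPS6KB1 to RPS6KB2 balance (0.034). Without a call in the reads, AKT1S1 turned to -0.069 and SLC1A5 to -0.083. With the longest transcript of each gene, a choice made after seeing the data, 1 member was lower, with MTOR at -0.012, RICTOR at -0.028, RPS6KB1 at 0.057, RPS6KA3 at 0.076, LAMTOR4 at -0.011, PRKAA1 at 0.019, EEF2 at -0.0089, EIF4E at 0.044, SLC3A2 at -0.030, RPS6KB2 at -0.017, EIF4EBP2 at 0.033 and the RPS6KB1 to RPS6KB2 balance at 0.074. The cause was not tested. RPTOR and EIF4EBP1 kept sign and call under the 3 other scalings and with the trend removed in either form. Depth limits DEPTOR, with 12 and 15 reads.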

Other observations

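The coding sequences of the members fall apart by base content in a way that crosses their roles. G and C filled 77.5% of the third positions of codons in RPTOR, 77.1% in EIF4EBP1, 79.0% in TSC2 and 75% in AKT1S1, but 33.9% in RICTOR, 40.2% in RPS6KB1 and 41.3% in RHEB, with MTOR at 63.8%, DEPTOR at 65.5% and TSC1 at 53.3%. RPTOR and EIF4EBP1, with nearly the same share, had log2 ratios of 0.17 and -0.34, and transcripts of 6071 and 1020 bases. A relation of this share to the ratios was not tested.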
